A study of Homo sapiens with 3 samples.

Results

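The 38 HOX genes described here belong to the HOXA, HOXB, HOXC and HOXD clusters and were taken by name, whatever their measured values, from 19879 protein-coding genes on chromosomes 1 to 22 and X. Binding of BRG1 was mapped by chromatin immunoprecipitation and sequencing (ChIP-seq) in 12Z, a human epithelial cell line derived from endometriosis. All libraries came from wild-type cells without any treatment given in the labels, 2 of them immunoprecipitated for BRG1 (replicates 1 and 2) and 1 an input of unselected chromatin for which no peak list was analysed here. The labels do not say whether the replicates were separate cultures, so the spread between them may be technical. Each replicate has a list of broad peaks, and a further list holds the peaks that the authors kept as overlapping, called shared peaks here. HOX peaks were those inside a cluster, from the lowest to the highest position of its listed genes, or within 100 kb of it. They numbered 11 of 6293 shared peaks, 33 of 17323 peaks of replicate 1 and 12 of 10082 peaks of replicate 2. The lists hold no read counts, so the depth is unknown, and no expression, so neither the activity of a HOX gene nor the cell type label can be checked from them.

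HOX genes encode homeodomain transcription factors that give cells their position along the head-to-tail axis, and within a cluster the genes lie in the order in which they act along it. Polycomb complexes keep HOX genes silent and trithorax proteins keep them active, and the fly counterpart of BRG1, Brahma, was found as a trithorax protein acting on HOX genes in Drosophila. BRG1, encoded by SMARCA4, is an ATPase of the SWI/SNF complex, which moves nucleosomes. In the female reproductive tract the posterior HOXA genes pattern the Müllerian duct, and HOXA10 and HOXA11 are needed for the endometrium to receive an embryo.

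BRG1 peaks were concentrated in the HOXA cluster and the anterior side of the HOXB cluster, were nearly missing from HOXC and were missing from HOXD. With 100 kb on either side, HOXA on chromosome 7 held 6 shared peaks, HOXB on chromosome 17 held 4, HOXC on chromosome 12 held 1 and HOXD on chromosome 2 held 0. In the same order replicate 1 had 18, 12, 3 and 0 peaks and replicate 2 had 7, 4, 1 and 0. Both libraries thus placed the clusters in the same order, but this rested on weak peaks. With a −log10 q of 2 required in both replicates, HOXA kept 1 shared peak, HOXB 2 (both in the flank), HOXC 1 and HOXD 0, so the lead of HOXA was lost. Inside the clusters themselves the shared peaks numbered 5 in HOXA, 2 in HOXB and 0 in HOXC and HOXD. The 99.7 kb of the HOXA cluster carried 50.1 shared peaks per Mb and the 200.2 kb of HOXB 9.99, against 2.08 per Mb over chromosomes 1 to 22 and X. For replicate 1 the densities were 150.39 per Mb in HOXA, 44.95 in HOXB and 8.53 in HOXC, against 5.72 over those chromosomes. For replicate 2 they were 60.2 in HOXA and 9.99 in HOXB, against 3.33.

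**Figure D1:**
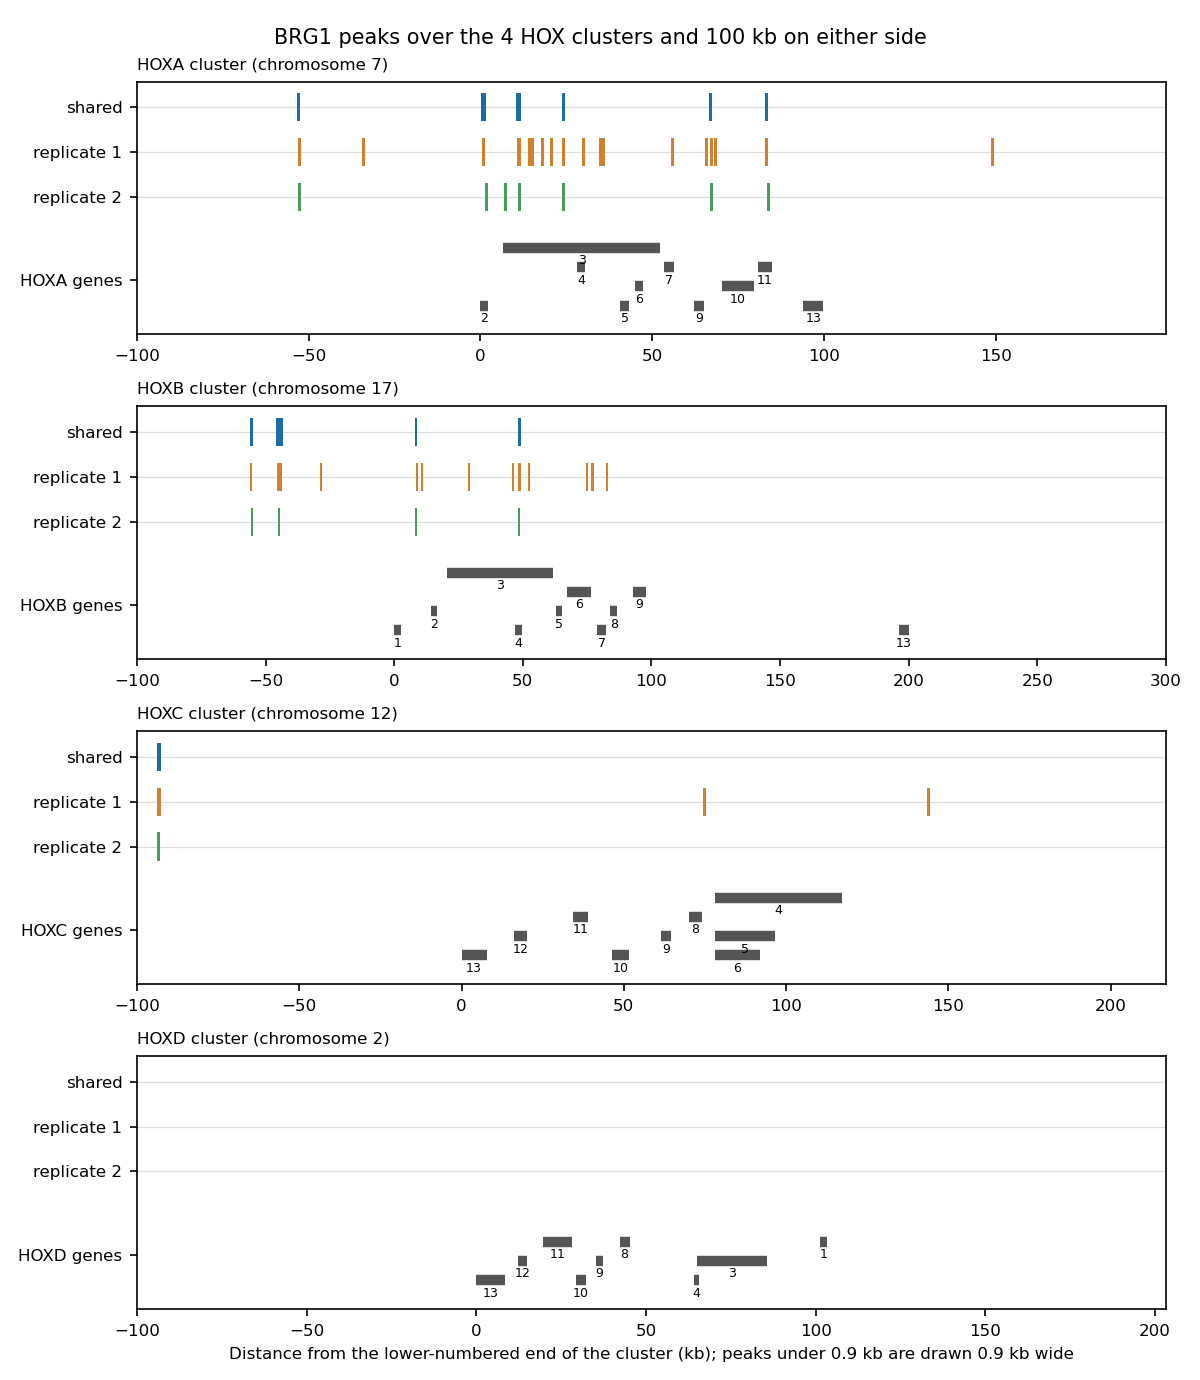
Positions of BRG1 peaks (coloured blocks) and of the listed HOX genes (grey bars with their paralogue numbers) along each cluster, as distance in kb from the lower-numbered end of the cluster, for the shared, replicate 1 and replicate 2 lists. The 15 replicate 1 peaks inside HOXA and the 9 inside HOXB contrast with 1 inside HOXC and 0 inside HOXD.

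Among the anterior HOXA genes, HOXA2 and HOXA3 carried shared peaks in their bodies. HOXA2 patterns the hindbrain and the pharyngeal arches. Its peak was the widest inside any cluster, at 27100496 to 27102036 on chromosome 7 (build GRCh38.p12, as for all peaks), with a width of 1541 bp, a fold over background of 3.28 and a −log10 q of 3.52. The fold is the authors' ratio of signal to background for the peak, and it is used here only as a rank within its list. The replicate peaks under it were 980 bp wide with a fold of 4.19 in replicate 1 and 463 bp wide with a fold of 3.46 in replicate 2. They stood at the 91.1st percentile of fold in replicate 1 and the 31.1st in replicate 2, so the libraries ranked the HOXA2 peak very differently. The shared peak ended 646 bp downstream of the annotated HOXA2 start.

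HOXA3, which is needed for the thymus and parathyroid glands, carried more peaks than any other member. Its annotated body is long because some transcripts start far upstream, and it spans HOXA4, HOXA5 and HOXA6. It held 2 shared peaks, 9 replicate 1 peaks and 3 replicate 2 peaks. The first shared peak lay at 27110762 to 27112149, was 1388 bp wide and had a fold of 3.04. The second lay at 27124046 to 27125010, over the antisense RNA gene HOXA-AS2, was 965 bp wide and had a fold of 3.39, the highest of the 7 shared peaks inside the clusters. At this second site the replicate 1 peak was 949 bp wide with a fold of 3.48, and the replicate 2 peak was narrower, 551 bp, with a fold of 3.71. Between and beyond these sites replicate 1 alone had 7 more peaks of 239 to 723 bp in the HOXA3 body, 1 of them also over HOXA4. Replicate 2 alone had 1, at 27107110 to 27108059, which was 950 bp wide with a fold of 3.79 and lay at the lower-numbered end of HOXA3. None of these 8 peaks was found in the other library.

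Of the central HOXA genes, which act in the neck and thorax, none was within 3 kb of a shared peak. HOXA4 lay 3.51 kb from the nearest, HOXA7 10.2 kb, HOXA5 16.04 kb and HOXA6 19.1 kb. HOXA4 and HOXA7 each had a replicate 1 peak over the body, of 280 bp with a fold of 3.38 at HOXA4 and of 420 bp with a fold of 2.97 at HOXA7. HOXA5 and HOXA6 had none within 3 kb in any list.

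Among the posterior HOXA genes, HOXA9 and HOXA11 had shared peaks at a gene end, and both peaks were weak. HOXA9, known for the oviduct in mice and for blood stem cells and leukaemia, had its peak at 27166866 to 27167322, in the interval towards HOXA10, 1.33 kb upstream of the annotated start. That peak was 457 bp wide, the narrowest shared peak inside the clusters, with a fold of 2.80 at the 15.7th percentile. Replicate 1 had 192 bp there (fold 3.15) and replicate 2 had 118 bp (fold 3.18). Replicate 1 also had a 102 bp peak at 27165730 to 27165831 with a fold of 3.24, with its nearer edge 192 bp upstream of HOXA9, and a 218 bp peak at 27168298 to 27168515 with a fold of 2.95. The peak of 102 bp was the only peak of any list that reached into the 250 bases upstream of a HOX start, for the 20 genes whose starts were at hand. Those bases of HOXA9 are therefore shown, at chr7:27165538-27165787 on the minus strand (RefSeq, GRCh38.p14, a later patch of the same assembly), with the 58 bases under the replicate 1 peak in capitals.
HOXA9: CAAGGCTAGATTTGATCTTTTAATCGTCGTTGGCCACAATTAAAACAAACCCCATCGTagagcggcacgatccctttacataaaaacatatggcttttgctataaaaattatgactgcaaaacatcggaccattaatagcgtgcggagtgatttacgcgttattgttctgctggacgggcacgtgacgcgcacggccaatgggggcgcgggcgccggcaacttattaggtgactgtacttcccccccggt
The capitals are the part farthest from the start, and neither replicate 2 nor the shared list had a peak over any of these 250 bases. HOXA10, known for uterine identity and decidualization, lay 3.28 kb from the shared peak between it and HOXA9 and 2.09 kb from the nearest replicate 1 peak, with no peak over its body in any list.

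HOXA11, known for uterine development and implantation, had a shared peak inside its body at 27183299 to 27183954, 1277 bp downstream of the annotated start. It was 656 bp wide, and its fold of 2.55 was the lowest of the shared HOX peaks, at the 7.6th percentile. The replicate peaks beneath it did not overlap each other. Replicate 1 had 286 bp at 27183309 to 27183594 (fold 3.097) and replicate 2 had 218 bp at 27183709 to 27183926 (fold 3.24), with 114 bp between them. HOXA13, which acts in the lower tract and the limb tips, had no peak within 10 kb in any list. Away from the genes, the HOXA window held a shared peak 52.8 kb below HOXA2, of 708 bp with a fold of 3.49. Replicate 1 alone had a peak 33.9 kb below HOXA2 and a 102 bp peak 48.9 kb beyond HOXA13, which lay 1.16 kb from the homeobox gene EVX1 and ranked at the 90.5th percentile of fold.

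In the HOXB cluster the shared peaks lay at HOXB4 and between HOXB1 and HOXB2. HOXB4 is known for the expansion of blood stem cells. Its peak, at 48576631 to 48577852 on chromosome 17, lay within its body and, since the genes overlap, within that of HOXB3, a hindbrain and neck gene. The peak was 1222 bp wide with a fold of 2.89. Replicate 1 had 299 bp there with a fold of 3.39, and replicate 2 had 501 bp with a fold of 3.34, so the libraries gave near-equal folds. HOXB1 sets the identity of a hindbrain segment and HOXB2 acts in the hindbrain and face. The peak between them, at 48536582 to 48537521, was 940 bp wide with a fold of 3.002, lay 5.13 kb from HOXB2 and 5.57 kb from HOXB1, and again covered replicate peaks that did not overlap. The replicate 1 peak was 540 bp wide (fold 3.52) and the replicate 2 peak 298 bp wide (fold 3.60), with 86 bp between them.

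Beyond HOXB4, only replicate 1 had peaks at central HOXB genes. It had them at HOXB6 of 234 bp inside the body (fold 3.21) and 107 bp beside it (fold 3.53), and one at HOXB7 of 481 bp (fold 3.52) that also came within 1.11 kb of HOXB8. HOXB6 is known for early blood progenitors, and HOXB7 and HOXB8 for growth of tumour and blood progenitor cells. Another lay between HOXB1 and HOXB2, 3.46 kb from HOXB2. In the HOXB3 body replicate 1 had 3 peaks without a replicate 2 partner, and those of 583 bp (fold 3.34) and 396 bp (fold 3.29) were also within 3 kb of HOXB4. A replicate 1 peak in the flank lay 28.6 kb from HOXB1. HOXB5 lay 9.13 kb and HOXB9 9.92 kb from the nearest replicate 1 peak. HOXB13, a prostate and hindgut gene set far from the others, lay 113.5 kb from the nearest replicate 1 peak and 146.9 kb from the nearest shared peak. Below HOXB1, towards SKAP1, the window held the widest shared peak of all 4 windows, 2838 bp at 48482401 to 48485238 with a fold of 3.99. A second of 1334 bp lay at 48472326 to 48473659 with a fold of 3.69. They were 43.3 kb and 54.9 kb from HOXB1 and nearer to SKAP1, an adaptor protein of T cell signalling, so neither fell in the domain of a HOX gene.

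No shared peak and no replicate 2 peak lay inside the HOXC cluster. Replicate 1 had 1 peak there, of 440 bp at 54013244 to 54013683 on chromosome 12 with a fold of 3.39, 0.47 kb from HOXC8 and 3.20 kb from HOXC4, HOXC5 and HOXC6. The annotated bodies of these 3 genes begin at the same position. HOXC8 patterns the thoracic skeleton and spinal motor neurons. HOXC9, HOXC10, HOXC11 and HOXC12 lay 9.91, 22.96, 35.6 and 54.3 kb from that peak, and HOXC13, a hair and nail gene, lay 66.7 kb from it. On the far side of HOXC4, 26.1 kb away and in its domain, replicate 1 alone had a 148 bp peak with a fold of 3.29. The shared peak of the HOXC window lay 92.6 kb from HOXC13 at 53844945 to 53846259, over an uncharacterized non-coding gene. It was 1315 bp wide with a fold of 4.26, and had 1153 bp and 1094 bp in replicates 1 and 2 with folds of 4.31 and 4.51. It was the highest-ranked HOX peak of the shared list, at the 96.6th percentile, and the HOX peak nearest the limit of 100 kb. The next shared peaks beyond that limit were 166.3 kb from the HOXC cluster (fold 3.56) and 189.8 kb from the HOXA cluster (fold 4.47).

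HOXD stood in a long stretch without peaks. HOXD1, HOXD3, HOXD4, HOXD8, HOXD9, HOXD10, HOXD11, HOXD12 and HOXD13, of which the posterior members pattern the limb and genital bud, lay 1206 to 1301 kb from the nearest shared peak. The stretch without a shared peak ran from 174027006 to 177396665 on chromosome 2, or 3.37 Mb. It measured 2.24 Mb in replicate 1 and 2.42 Mb in replicate 2. A window without peaks is common in these lists. Of 7379 consecutive 300 kb tiles that hold a protein-coding gene, 75.2% had no shared peak, 52.4% had no replicate 1 peak and 71.0% had no replicate 2 peak. The empty HOXD window and the single shared peak of HOXC are therefore near the background of the lists. This holds for windows of about 300 kb only. The length of the whole stretch without peaks around HOXD was not set beside that of other stretches.

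The HOXA and HOXB windows stood at the upper end of that background. Only 0.935% of those tiles held as many shared peaks as HOXA (6 or more), and 0.230% and 1.07% held as many replicate 1 and replicate 2 peaks (18 or more and 7 or more). For HOXB, which at 400.2 kb is longer than a tile, 2.44% of tiles held 4 or more shared peaks, 0.827% held 12 or more replicate 1 peaks and 4.24% held 4 or more replicate 2 peaks. With its flanks the HOXA window had 20.02 shared peaks per Mb and the HOXB window 9.99, against 9.15 per Mb (9 peaks in 983.9 kb) at the type II keratins of epithelial cells, another compact gene family. In replicate 1 the densities were 60.05 per Mb at HOXA and 29.98 at HOXB, against 16.26 at the type II keratins. In replicate 2 they were 23.35 at HOXA and 9.99 at HOXB, against 11.18, so HOXB was then below these keratins. The type I keratin window on chromosome 17 had 1 shared peak, or 0.85 per Mb. By fold the order was the other way. Inside the type II keratin cluster the median fold percentile was 73.8 for shared peaks, 67.6 in replicate 1 and 63.6 in replicate 2. Inside the HOX clusters it was 24.1, 23.1 and 34.0, and the shared type I keratin peak stood at 38.4. Single regions have no replicate of their own, so these densities and ranks are given without a test.

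**Figure D2:**
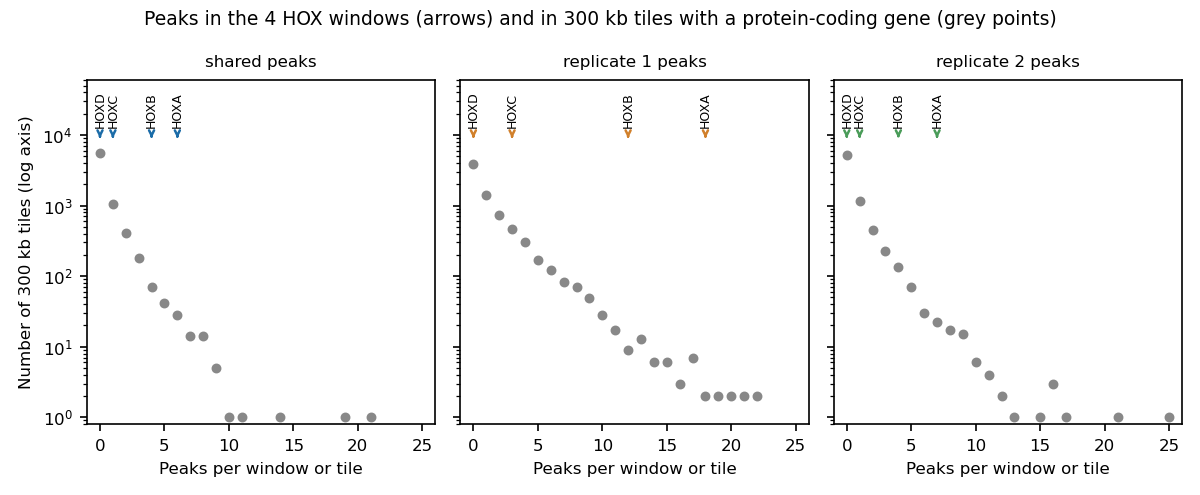
Peaks per window for the 4 HOX windows (arrows) and the number of 300 kb tiles with a protein-coding gene at each peak count (grey points, log axis), for each list. HOXD sits at 0 peaks with most tiles and HOXA sits in the sparse upper tail in all 3 lists, where 3, 7 and 5 tiles with over 25 peaks lie beyond the axis.

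Counted by gene, 4 of 38 HOX genes (10.5%) had a shared peak within 3 kb of either end, HOXA2, HOXA9, HOXA11 and HOXB4, where 2.25% of all protein-coding genes did. In replicate 1 the count was 11 of 38 (28.9%), against 6.87% of all genes, adding HOXA4, HOXA7, HOXA10, HOXB6, HOXB7, HOXB8 and HOXC8. In replicate 2 it was 5 of 38 (13.2%), against 3.02%, adding HOXA3. Within 1 kb of an end the shared count was 2, HOXA2 and HOXB4, against 1.30% of all genes, and within 10 kb it was 9, against 4.58%. Neighbouring HOX genes share peaks and lie close together, so they are not independent counts. Over gene bodies, 5 of 38 (13.2%) had a shared peak, against 6.11% of all genes, 9 (23.7%) a replicate 1 peak, against 13.7%, and 5 a replicate 2 peak, against 7.30%. In gene domains, meaning the positions nearer to a gene than to any other protein-coding gene and at most 100 kb away, 8 of 38 (21.1%) had a shared peak, against 9.72%, 16 (42.1%) a replicate 1 peak, against 20.2%, and 8 a replicate 2 peak, against 11.5%. The 8 with a shared peak were HOXA2, HOXA3, HOXA9, HOXA11, HOXB2, HOXB3, HOXB4 and HOXC13. By cluster the domain counts were 4 of 10 in HOXA, 3 of 10 in HOXB, 1 of 9 in HOXC and 0 of 9 in HOXD.

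Anterior genes (paralogue groups 1 to 3) had a shared peak in their domain in 4 of 7 cases, central genes (groups 4 to 8) in 1 of 15 and posterior genes (groups 9 to 13) in 3 of 16. The 4 anterior genes were HOXA2, HOXA3, HOXB2 and HOXB3, and the central gene was HOXB4, whose peak is the one that HOXB3 counts. Replicate 1 gave 5 of 7 anterior, 7 of 15 central and 4 of 16 posterior genes, and replicate 2 gave 4 of 7, 1 of 15 and 3 of 16. The share of central genes, 6.67% in the shared list and in replicate 2, is near that of all genes (9.72% and 11.5%), and in replicate 1 it was 46.7%, against 20.2%. A peak anywhere in the bodies of HOXA3 and HOXB3, which overlap central genes, counts for the anterior gene in its domain. At gene ends the shared list had 1 of 7 anterior, 1 of 15 central and 2 of 16 posterior genes, against 2.25% of all genes. Replicate 1 had 1 of 7, 7 of 15 and 3 of 16, against 6.87%, and replicate 2 had 2 of 7, 1 of 15 and 2 of 16, against 3.02%. In replicate 1 the anterior lead was thus lost. The 3 kb limit separated HOXA9, at 1.33 kb, from HOXA10 and HOXA4, at 3.28 and 3.51 kb.

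**Figure D3:**
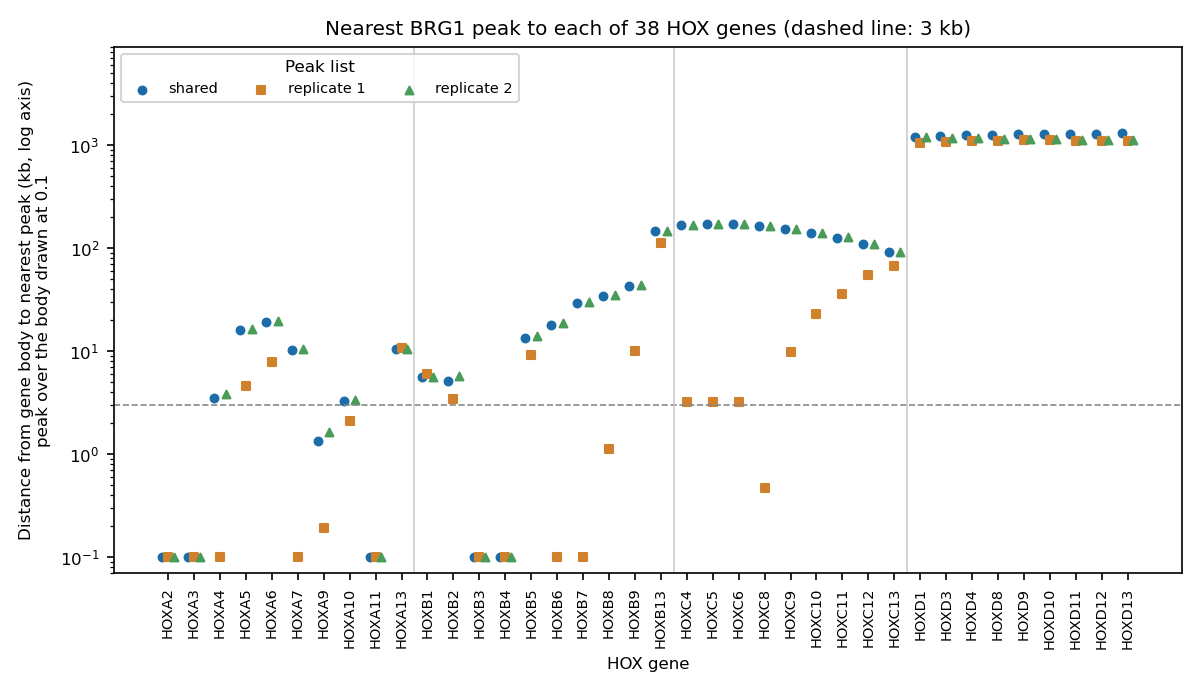
Distance in kb (log axis) from the body of each of the 38 HOX genes to the nearest shared, replicate 1 and replicate 2 peak, with peaks over the body drawn near the foot of the axis and a dashed line at 3 kb. HOXA2, HOXA3, HOXA11, HOXB3 and HOXB4 have a peak over the body in all 3 lists, while all 9 HOXD genes are 1051.5 kb or more from any peak.

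Peaks inside the clusters were denser and of lower fold than those in the flanks. Shared peaks numbered 13.45 per Mb inside and 5 per Mb in the flanks, which is also above the 2.08 per Mb of the genome. The 7 shared peaks inside the clusters had a median fold percentile of 24.1 (range 7.6 to 55.8), and 6 of them were below the median of the list. The 4 shared flank peaks had a median percentile of 85.9 (range 65.3 to 96.6). The same held in replicate 1, with a median of 23.1 for 25 peaks inside and 82.7 for 8 flank peaks, and in replicate 2, with 34.0 for 8 inside and 90.9 for 4 in the flanks. In replicate 1 the peak over HOXA2, at the 91.1st percentile, was 1 of only 2 inside the clusters that were not below the list's median, beside that of HOXA3 at the 50.8th. The flank peaks include the same genomic sites in all 3 lists, so the lists do not stand as separate observations.

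By width, the shared peaks inside the clusters were ordinary. They measured 457 to 1541 bp with a median of 965 bp, against 926 bp over all shared peaks. In replicate 1 the median was 299 bp against 355 bp, and in replicate 2 it was 380.5 bp against 322 bp. Shared flank peaks were wider, with a median of 1324.5 bp. No broad domain of BRG1 covered a HOX cluster in these lists, since shared peaks covered 5.02% of the HOXA cluster and 1.08% of HOXB, and replicate 1 peaks covered 6.77% of HOXA and 1.52% of HOXB.

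**Figure D4:**
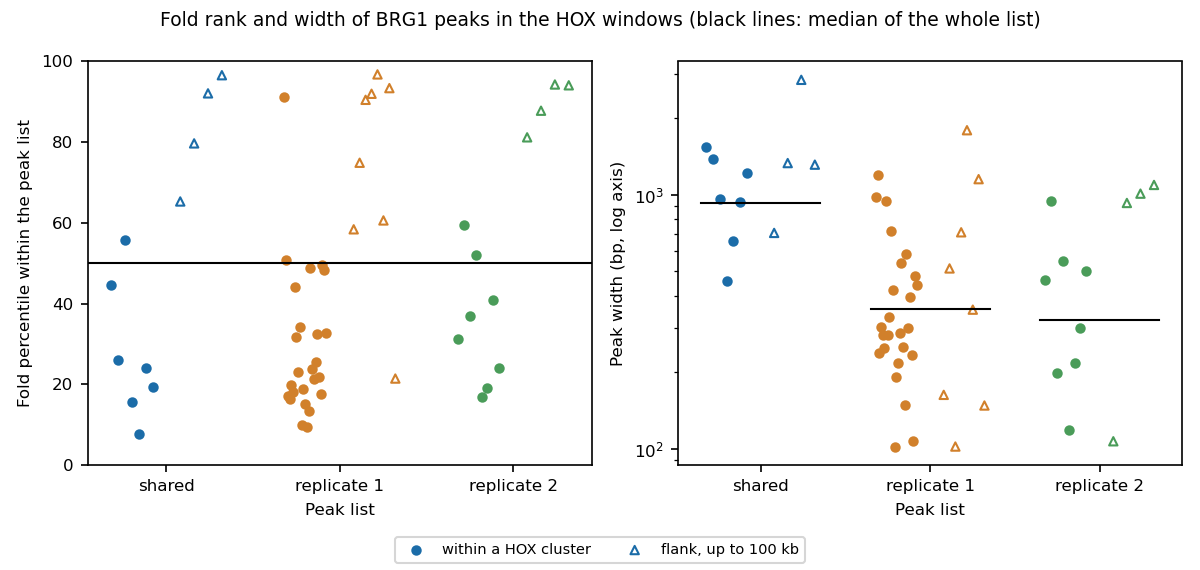
Percentile of the authors' fold within each list (left) and width in bp on a log axis (right) for each peak inside a HOX cluster (filled circles) and in the 100 kb flanks (open triangles), with the median of the whole list as a black line. Inside the clusters 6 of 7 shared, 23 of 25 replicate 1 and 6 of 8 replicate 2 peaks lie below the median fold, while all 4 shared flank peaks lie above it.

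Many HOX peaks had q-values near the weak end of the lists. Inside the clusters the −log10 q of shared peaks ran from 2.03 at the peak between HOXB1 and HOXB2 to 3.61 at the second HOXA3 site, where the median of all shared peaks was 3.70. Along the HOXA cluster the −log10 p of the 5 shared peaks, in order of position, was 6.49, 5.92, 6.63, 5.52 and 4.77, and the −log10 q was 3.52, 3.02, 3.61, 2.67 and 2.06, so the HOXA11 peak was the weakest. In HOXB the −log10 p was 4.74 between HOXB1 and HOXB2 and 5.74 at HOXB4, with a −log10 q of 2.03 and 2.85. In the flanks the −log10 p was 6.55 beside HOXA2, 7.27 and 9.06 beside HOXB1 and 9.06 beside HOXC13, with a −log10 q of 3.55, 4.17, 5.81 and 5.76, higher than most peaks inside. Only 1 of the 7, the first HOXA3 site, reached a −log10 q of 2 in both replicates (2.398 in replicate 1 and 2.07 in replicate 2), and 3 of the 4 flank peaks did. Over all shared peaks 56.4% did. At that limit 0 of 38 HOX genes had a shared peak at a gene end, against 1.05% of all genes, and HOXA3 and HOXC13 had one in their domain, against 6.10%. None of the 11 HOX peaks reached a −log10 q of 5 in both replicates, against 3.85% of all shared peaks.

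Replicate 1 peaks inside the HOX clusters were found in replicate 2, by an overlap of at least 1 bp, in 5 of 25 cases (20%, 95% Wilson interval 8.86 to 39.1%), against 36.6% over the whole list. Replicate 2 peaks inside the clusters were found in replicate 1 in 5 of 8 cases (62.5%, interval 30.6 to 86.3%), against 63.9%. In the flanks the shares were 4 of 8 and 4 of 4. The share of the whole list lies inside the interval in both directions, so no difference was detectable. The intervals cover counting error only and treat peaks as independent. Of the 7 shared peaks inside the clusters, 2 (28.6%, interval 8.22 to 64.1%) rested on replicate peaks that did not overlap each other, those at HOXA11 and between HOXB1 and HOXB2. Among all shared peaks 5.36% were of this kind. Without those 2 peaks, HOX genes with a peak at a gene end numbered 3, HOXA2, HOXA9 and HOXB4, against 2.07% of all genes.

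The names of the shared peaks carry running numbers that rose with position on every chromosome, and in each replicate list nearly every number was present (22 missing of 17421 in replicate 1 and 25 of 10182 in replicate 2). In the shared list 33418 of 39761 numbers were missing. The 5 shared peaks inside HOXA bore numbers from 37156 to 37185 over 83.5 kb, with 25 numbers between them missing, and the 2 in HOXB bore 17783 and 17793 over 41.3 kb, with 9 missing. Between the nearest shared peaks on either side of a cluster, the numbers, listed or missing, came to 63.4 per Mb at HOXA, 51.4 at HOXB, 37.2 at HOXC and 6.2 at HOXD, against 13 per Mb over chromosomes 1 to 22 and X. Whether a missing number is a called peak that was left out of the list was not tested.

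Of the 21 long non-coding RNAs and microRNAs of the clusters that were looked for, 6 had a shared peak over them or within 3 kb, and all 6 lay in HOXA or HOXB. HOXA-AS2, antisense to HOXA3, had the second HOXA3 peak over its body. HOTAIRM1, known for myeloid cells, lay 0.24 kb from the HOXA2 peak, HOXA10-AS 1.58 kb from the HOXA9 peak and HOXA11-AS, an RNA known from endometrium, 1.45 kb from the HOXA11 peak. Replicate 1 had such a peak at 8 of the 21 and replicate 2 at 6. Across the genome 4.69% of long non-coding and 1.73% of microRNA genes had a shared peak so near, with 10.9% and 3.72% in replicate 1 and 5.78% and 2.15% in replicate 2. HOTTIP, known for acting on the HOXA cluster, lay 16.5 kb from the nearest shared peak, HOTAIR, known for acting on HOXD, 116.05 kb, and HAGLR, a gene of the HOXD cluster, 1208 kb. Genes on opposite strands lie too close together here for a peak to be given to one of them.

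The microRNA genes among the 6 were MIR10A, 1.98 kb from the HOXB4 peak and 0.43 kb from a replicate 1 peak, and MIR196B, 2.16 kb from the HOXA9 peak and 0.96 kb from a replicate 1 peak. The related MIR196A1 and MIR196A2 lay 54.6 kb and 145.5 kb from a shared peak. The mature sequences are shown (RefSeq, GRCh38.p14) because miR-196 targets HOX transcripts such as HOXB8, with the seed, bases 2 to 8, in capitals.
hsa-miR-10a-5p: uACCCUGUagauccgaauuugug
hsa-miR-196b-5p: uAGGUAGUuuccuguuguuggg
hsa-miR-196a-5p: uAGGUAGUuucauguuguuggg
The miR-196 forms share the seed and differ by A12C, counted from the 5′ end with the base of miR-196a-5p first, so the microRNA with BRG1 peaks nearby and those without have the same seed.

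Annotated starts were at hand for 20 of the 38 genes, with 26 different starts in all, since HOXA3 and HOXA10 have several and HOXC4 and HOXC5 share theirs, which is counted once. Without a start at hand were HOXA5, HOXD9, all HOXB genes but HOXB1, and all HOXC genes but HOXC4 and HOXC5. In the 250 bases upstream, HOX starts had a median of 19.5 CpG dinucleotides and 58.8% GC, against 11 and 58% over 34789 promoters. The AP-1 site TGANTCA, searched on both strands, was in 0 of the 26, against 6.55% of all promoters. The TEAD site GGAATG was in 7 (26.9%, against 11.9%), at HOXA3, HOXA10, the start of HOXC4 and HOXC5, HOXD4, HOXD8, HOXD10 and HOXD13. The posterior HOX core TTTATNG was in 6 (23.1%, against 8.95%), at starts of HOXA3, HOXA9, HOXA10 and HOXD8 and the start of HOXC4 and HOXC5. It was thus not limited to posterior genes. The homeobox core TAATTA was in 2 (7.69%, against 4.37%), HOXD3 and HOXD11. The TEAD and HOX letters were thus found at HOXD genes, which had no peak, as well as at HOXA genes. With 3 kb around annotated starts in place of gene ends, 4 of the 20 genes had a shared peak, HOXA2, HOXA3, HOXA9 and HOXA11, against 1.84% of 15736 protein-coding genes with a start at hand. All 4 are HOXA genes, and HOXA3 counted only through starts inside its long body. Since most HOXB and HOXC genes had no start at hand, this is not a share for all clusters.

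Other genes were taken from 4 partly overlapping lists of 62 different genes, namely HOX cofactors, homeobox relatives, Polycomb and trithorax regulators, and genes that only neighbour the clusters. A shared peak lay within 3 kb of an end at 0 of them, near the 2.25% of all genes, and a replicate 1 peak at 8 (12.9%, against 6.87%). In their domains 9 (14.5%) had a shared peak, against 9.72% of all genes, 19 (30.6%) a replicate 1 peak, against 20.2%, and 10 (16.1%) a replicate 2 peak, against 11.5%. The shared peaks belonged to 5 of 24 neighbours, 3 of 20 regulators, 1 of 9 cofactors and 0 of 11 relatives. The regulators were EED, a Polycomb subunit (fold 3.70), CBX7, a Polycomb reader of methylated histone H3 (fold 3.68), and KDM6B, a demethylase that removes the Polycomb mark (fold 3.31). The peak lay 69.9 kb from EED and 21.6 kb from CBX7, and only at KDM6B was it over the body. The cofactor was MEIS2, which binds DNA with HOX proteins (fold 3.11, over its body). Its relatives MEIS1 and PBX3 had 4 and 2 peaks in replicate 1 and none in replicate 2 or the shared list. Among the neighbours, SKAP1 had 4 shared peaks in its domain, with a highest fold of 3.99. SKAP2, on the far side of HOXA, had 1 with a fold of 4.47, lying 45.5 kb from the gene. TAX1BP1 had 2 shared peaks with a highest fold of 4.09, and CBX5, a heterochromatin protein, had 1 with a fold of 3.56, 8.34 kb away. The best shared peak of SKAP2 ranked at the 98.2nd percentile of fold, above every shared peak inside a HOX cluster.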

How the data were processed

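BRG1 ChIP-seq of wild-type 12Z cells was analysed from 3 peak lists, 1 for each replicate and 1 of overlaps. Chromatin was fixed with formaldehyde, cut with micrococcal nuclease and sonicated, per the labels' protocols. The submitters' processing notes name MACS2, bedtools, Bowtie2, Picard, SAMtools, Trim Galore and cutadapt, and GRCh38.p12. Versions, settings and peak filters are not stated there. The deposited lists give for every peak a fold (a ratio of signal to background) and −log10 values of the q-value and the p-value. No use was made of the deposited score. The overlap list has its own peak names, so it may have come from a further call, and the reads behind it are not stated.

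Counts, widths and distances were computed with pandas 2.3.3, numpy 2.4.6, scipy 1.17.1 and matplotlib 3.10.9 (Python 3.11.15), using chromosomes 1 to 22 and X, with the counting tested on simulated peaks. Neighbouring genes came from RefSeq (GRCh38.p14), and its gene coordinates are not printed except for a sequence shown. All 38 genes matched, and 95 read-through genes were left out. A gene counted when a peak lay within 3 kb of either gene end, over the body, or in its domain. Every member with a peak at an end or in its domain is named. Width and fold are given for every shared peak in the windows, but some replicate peaks are given only by distance, width range or count. In each other protein-coding list up to 4 members with a shared peak were named by fold percentile, and MEIS1 and PBX3 were named after their values were seen. The members and lists were chosen with earlier results of these data known. With 1 condition and no counts, HOX values are set beside those of all genes, peaks or tiles, with no p-value. Alternatives covered distances, flanks, q limits, single replicates and the overlap rule.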

Additional observations from a re-analysis of the deposited data

How the results depend on the processing

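Depth is unknown, and 2 libraries of 1 group allow no test between samples. No paired analysis was possible because there is only 1 group with peak lists. The limits on peaks that overlap between replicates and on read-through genes were chosen after seeing the data. Of 57 alternative values, 27 stayed close to the reported one and 30 moved, and the cause was not tested where the construction (fewer or more peaks, a smaller window) does not show it. HOX genes with a shared peak at a gene end numbered 4, against 2 within 1 kb, 9 within 10 kb, 0 with a −log10 q of 2 in both replicates, 0 with 5, and 5 to 11 without replicate 1 or without replicate 2. Domain counts of 8 became 2 with a −log10 q of 2, 0 with 5, and 8 to 16 without a replicate. With read-through genes kept it was 7. The 11 shared peaks in the windows became 4 with a −log10 q of 2, 0 with 5, 7 without flanks, and 12 to 33 without a replicate. Their density of 8.33 per Mb became 3.03, 0 and 13.45 in the same settings, and 9.09 to 24.99 without a replicate. The median width of 1222 bp became 1361 bp with a −log10 q of 2, 1093.5 bp with 50 kb flanks, 965 bp without flanks, and 302 to 482 bp without a replicate, where single-library peaks are narrower. The median fold percentile of 44.7 became 85.9 with a −log10 q of 2, 55.8 for shared peaks whose replicate peaks overlap each other, 25 with 50 kb flanks, 24.1 without flanks, and 31.6 to 46.4 without a replicate. The share of replicate 1 peaks found in replicate 2, 27.3% (9 of 33), became 50% (6 of 12) when limited to a −log10 q from 2 upwards. The share of the whole list at that limit was not computed, so this rise is not particular to HOX peaks as far as known. Other genes with a shared peak in their domain numbered 9, against 5 with a −log10 q of 2, 0 with 5, and 10 to 19 without a replicate.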
